A study of Homo sapiens with 8 samples.

Results

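In all, 10 genes for mRNA-binding proteins of embryonic and neuronal cells were followed by ribosome profiling in IMR32 cells, a human neuroblastoma line in which MYCN is known to be amplified. They were LIN28B, the 3 IGF2BP genes (IGF2BP1, IGF2BP2 and IGF2BP3), the 4 ELAVL genes (ELAVL1 to ELAVL4) and both Musashi genes (MSI1 and MSI2). They were chosen by name, with the version of each Ensembl identifier ignored, and are 10 of the 60651 genes in the deposited table. Ribosome profiling sequences the mRNA fragments that ribosomes shield from nuclease, so a value reflects how much of an mRNA is occupied by ribosomes. No RNA-seq of the same cells was analysed here, so a change in mRNA level and a change in ribosomes per mRNA cannot be told apart. Of 8 libraries, 4 came from cells treated for 6 h with CR31B and 4 from cells given the solvent DMSO at 0.1%, all in the same line, which the labels give as wild type. CR31B is an analogue of silvestrol, a rocaglate that binds the RNA helicase eIF4A. All cells received cycloheximide before harvest, and lysates were digested with RNase I to footprints of 28 to 30 nucleotides.

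LIN28B binds precursors of the let-7 microRNAs and blocks their maturation, and it is known as an oncogene of neuroblastoma. The IGF2BP proteins bind mRNAs, in part at N6-methyladenosine (m6A), and protect them from decay; IGF2BP1 and IGF2BP3 are mostly silent in adult tissue. The ELAVL or Hu proteins bind AU-rich and U-rich elements, with ELAVL1 (HuR) in nearly all cells and ELAVL2, ELAVL3 and ELAVL4 (HuB, HuC and HuD) in neurons and neuronal tumours. The Musashi proteins bind UAG-containing sites and are known from neural stem and progenitor cells.

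Values are TPM, footprints scaled for transcript length and to a fixed sum in each library. Ribosomes lie mostly on coding sequence, so a long untranslated part lowers the TPM of a gene. Levels of different genes are therefore compared as TPM only, not as ribosomes per coding base. From 17857 to 19758 genes were listed above 0 in the CR31B libraries and from 19043 to 22270 in the DMSO libraries. Protein-coding genes took 51.8% to 61.3% of TPM in CR31B and 52.05% to 58.4% in DMSO. Within the pairs of the same replicate number, the CR31B library held an estimated 56.6% to 90.4% as many footprints as its DMSO partner. The cells carried 8 of 9 adrenergic neuroblastoma markers at a mean of at least 1 TPM, while TH, the first enzyme of catecholamine synthesis, was below that level. The summed adrenergic markers were 687.7 to 780.4 TPM in CR31B and 616.6 to 778.9 TPM in DMSO. Within these overlapping sums, HAND2 (log2 fold change 0.58, limma adjusted p = 0.0188) and TBX2 (log2 fold change 0.95, limma adjusted p = 0.0285) rose. PHOX2A, DBH and CHGA had log2 fold changes of -0.38, -0.43 and -0.32 (limma adjusted p of 0.136, 0.272 and 0.182). Of 7 mesenchymal markers 4 reached 1 TPM, with TWIST1 highest at 36.1 TPM and PRRX1 at 0, and their sums were 40.5 to 49.3 and 32.65 to 49.8 TPM. Of 5 fibroblast markers only COL1A1 reached 1 TPM, at 9.30 TPM. No Schwann cell and no blood marker did, and SOX10, CD3E and HBB were at 0 in all 8 libraries.

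All 10 genes were occupied by ribosomes in all 8 libraries and passed the filter of a mean of at least 1 TPM. IGF2BP1 was the highest, at a mean of 229.4 TPM in DMSO, and LIN28B the lowest, at 2.65 TPM. In limma's test of log2(TPM + 1), adjusted by the Benjamini-Hochberg method over 11778 genes, 0 of the 10 changed at an adjusted p under 0.05. Across all genes tested, 7.46% did (879 genes), with 3.45% higher and 4.02% lower in CR31B. Of the members only MSI2 had an unadjusted p under 0.05, against 23.4% of all genes. Of the members 4 had a log2 fold change above 0 and 6 below, and the median was -0.045, beside 0.029 over all genes tested. The median size of the change, with the sign ignored, was 0.174 for the members and 0.202 for all genes. The 95% intervals of all 10 lay between -0.67 and 0.67 on the log2(TPM + 1) scale. A fit with the replicate number as a block also called 0 of the 10, although it called 1453 genes (12.3%).

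**Figure D1:**
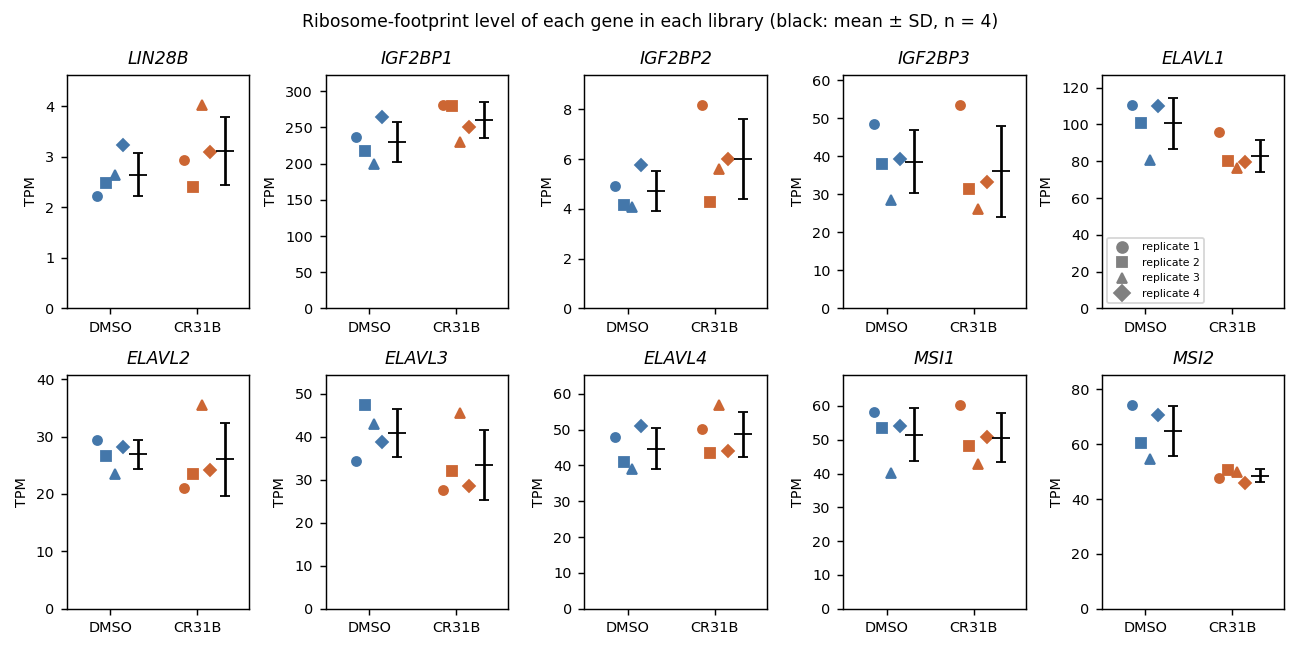
Footprint level of each of the 10 genes in TPM, 1 panel per gene with its own axis from 0, with 1 point per library (marker shape: replicate number) and the mean ± SD of each group (n = 4) in black. Only in the MSI2 panel do the CR31B points, at 45.81 to 50.70 TPM, all lie below the DMSO points, at 54.48 to 74.19 TPM.

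**Figure D2:**
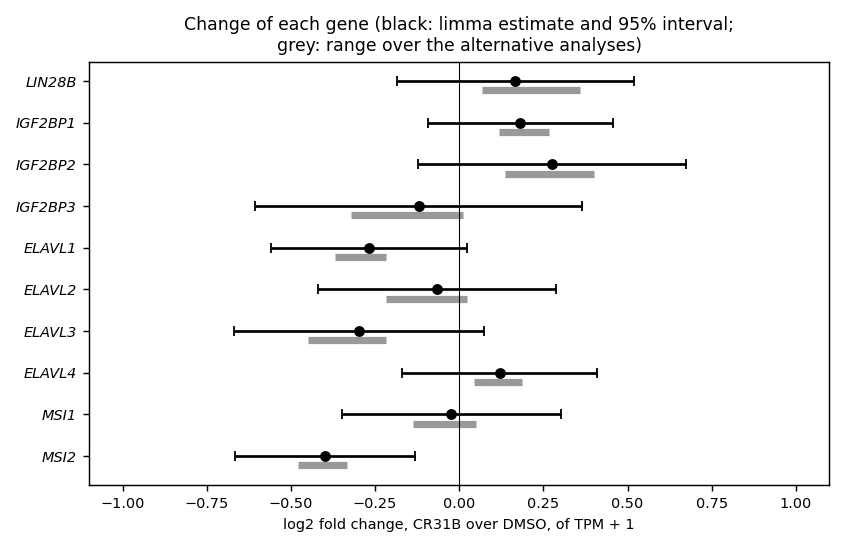
Log2 fold change of each gene, CR31B against DMSO, on the log2(TPM + 1) scale, with its 95% interval from limma in black and the range over the alternative analyses in grey. The 95% intervals of 9 genes include 0, that of MSI2 runs from -0.67 to -0.13, and none reached an adjusted p under 0.05.

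Levels were ordered by mean TPM in the DMSO libraries, with no correction for non-coding length. From high to low they were IGF2BP1, ELAVL1, MSI2, MSI1, ELAVL4, ELAVL3, IGF2BP3, ELAVL2, IGF2BP2 and LIN28B. In TPM, IGF2BP1 lay above ELAVL1, ELAVL1 above MSI2, ELAVL2 above IGF2BP2 and IGF2BP2 above LIN28B in every library of both groups. The coding sequence is 750 of the 5505 transcript bases in LIN28B and 1797 of 3688 in IGF2BP2. An order per coding base was not tested. From MSI2 down to ELAVL2 each gene overlapped the next in range, so the order of neighbours there was not set beyond the spread of the libraries. Genes further apart could still be separate. MSI2 had at least 54.48 TPM in DMSO and 45.81 TPM in CR31B, above the highest ELAVL2 values of 29.42 and 35.44 TPM. As a percentile of TPM among the genes tested, IGF2BP1 stood at 95.9 and ELAVL1 at 90.7, while IGF2BP2 stood at 36.5 and LIN28B at 21.2. The DMSO library of replicate 3, which also had the lowest protein-coding share of its group, held the lowest value of its group for 8 of the 10 genes. With TPM rescaled over protein-coding genes it was lowest for 6.

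LIN28B (ENSG00000187772.8, chr6:104936616-105083332, plus strand, GRCh38) had 2.93, 2.40, 4.02 and 3.10 TPM in the CR31B libraries 1 to 4 and 2.23, 2.48, 2.64 and 3.23 TPM in the DMSO libraries 1 to 4. The groups overlapped, and CR31B was higher in 2 of the 4 pairs of the same replicate number. The means were 3.11 ± 0.674 and 2.65 ± 0.425 TPM (SD, n = 4 each), and the log2 fold change was 0.17 ± 0.16 (SE; adjusted p = 0.581 in limma). Without CR31B replicate 3, the highest library, it was 0.066, and without DMSO replicate 1 it was 0.11 and without CR31B replicate 2 it was 0.25. An estimated 711 to 1437 footprints per library lay behind these values, and 797 to 1851 behind those of IGF2BP2, the next lowest gene. Of the 723 windows of 28 bases in its coding sequence, 90 (12.4%) are repeated in the unprocessed pseudogene AC008723.1, which was listed at 0 to 2.1 TPM in CR31B and at 0 to 1.34 TPM in DMSO. How the deposited values split such footprints is not given in the sources used here. With the pseudogene's TPM added, an alternative chosen after seeing the data, the log2 fold change was 0.36 (limma adjusted p = 0.297). The antisense gene LIN28B-AS1 overlaps its exons and did not exceed 0.48 TPM. LIN28A, the paralogue that acts in embryonic stem cells, did not exceed 0.01 TPM in any library.

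LIN28B opposes let-7, and its own mRNA is a known let-7 target. The mature let-7 sequence and the LIN28B and IGF2BP1 sites are shown because these mRNAs hold more let-7 seed matches than most 3′UTRs of their length. Capitals mark the seed (bases 2 to 8) in the microRNA and the matching letters CTACCTC in the mRNAs, read 5′ to 3′ on the strand of the gene.
hsa-let-7a-5p: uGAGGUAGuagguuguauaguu
LIN28B site 1 (chr6:105078812-105078834): acccggttgcaaagtCTACCTCa
LIN28B site 2 (chr6:105081239-105081261): tactgatgatagtaaCTACCTCt
LIN28B site 3 (chr6:105081421-105081443): gtttacagcaaaaggCTACCTCa
LIN28B site 4 (chr6:105082860-105082882): aaatgatggtgttgaCTACCTCt
IGF2BP1 site 1 (chr17:49051061-49051083): tgtgtgcgaagtaaaCTACCTCa
IGF2BP1 site 2 (chr17:49053698-49053720): cagcagtgctagtaaCTACCTCa
IGF2BP1 site 3 (chr17:49054352-49054374): gtataaatggattaaCTACCTCa
IGF2BP1 site 4 (chr17:49054997-49055019): tcacttttgttttatCTACCTCt

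The microRNA sequence is from RefSeq (GRCh38.p14), where 9 members of the let-7 family share the seed GAGGUAG. The sites are in the 3′UTR of the principal transcript of GENCODE 29 (GRCh38, plus strand for both genes), searched on the transcript strand only. LIN28B and IGF2BP1 each held 4 matches, a number reached by 0.127% of 787 tested genes with a 3′UTR within 20% of the LIN28B length and by 0.419% of 477 such genes for IGF2BP1. Each was counted among its own comparison genes, and for LIN28B no other of them reached 4. Of these genes, 22.2% and 28.3% held at least 1 match. IGF2BP2, IGF2BP3 and ELAVL1 held 1 match each, and the other 5 members held none in these transcripts. At least 1 match was found in 9.61% of the 10314 tested protein-coding genes, where a transcript without an annotated 3′UTR counts as holding none. The 5 members with a match had log2 fold changes from -0.27 to 0.28 and the 5 without from -0.40 to 0.12, and no microRNA was measured. For ELAVL4 the principal transcript has a 3′UTR of only 224 bases, so a match in a longer one would not be seen.

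IGF2BP1 (ENSG00000159217.10, chr17:48997412-49055650, plus strand), the IGF2BP member best known for stabilising MYC-family mRNAs, was listed at 280.74, 279.36, 229.19 and 250.17 TPM in CR31B and at 236.58, 217.37, 199.87 and 263.70 TPM in DMSO. CR31B was higher in 3 of 4 pairs and the groups overlapped. The means were 259.9 ± 24.8 and 229.4 ± 27.4 TPM (SD, n = 4 each), and the fitted log2 fold change was 0.18 ± 0.12 (SE; adjusted p = 0.418 in limma, exact permutation p = 0.143). Between 82398 and 176569 footprints per library were estimated for it, and no 28-base window of its coding sequence was repeated in another gene.

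IGF2BP2 (ENSG00000073792.16, chr3:185643739-185825056, minus strand), which is also expressed in adult tissues, had 8.17, 4.29, 5.61 and 5.99 TPM in CR31B and 4.91, 4.16, 4.06 and 5.77 TPM in DMSO. CR31B was higher in 4 of 4 pairs, by little in pairs 2 and 4, and the groups overlapped. On the fitted scale the log2 fold change was 0.28 ± 0.18 (SE; adjusted p = 0.396 in limma, exact permutation p = 0.171). Without CR31B replicate 1, the highest library, it was 0.14. Pseudogenes repeat 49.2% of its 28-base coding windows, but none of them exceeded 0.03 TPM.

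IGF2BP3 (ENSG00000136231.14, chr7:23310209-23470467, minus strand), the member whose protein marks many carcinomas, had 53.53, 31.41, 26.24 and 33.31 TPM in CR31B and 48.65, 38.11, 28.44 and 39.41 TPM in DMSO. Replicate 1 was highest and replicate 3 lowest in both groups, and CR31B was lower in 3 of 4 pairs. It had a log2 fold change of -0.12 ± 0.22 (SE; adjusted p = 0.793 in limma), and without CR31B replicate 3 it was 0.011. Its standard error was the widest of the 10. Other genes repeat 44.7% of its coding windows, with AL023775.1 at 0.21 to 1.14 TPM and AC092447.1 at 0.98 to 3.02 TPM, and adding them left the log2 fold change at -0.12. MALSU1, a neighbour on the opposite strand whose exons overlap it, was listed at 27.5 to 39.9 TPM. Whether the counting used strand is not given in the sources used here.

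IGF2BP1 made up most of the summed IGF2BP TPM, with 86.2% ± 2.97 in CR31B libraries and 84.2% ± 2.00 in DMSO libraries (SD, n = 4 each). IGF2BP3 took 11.8% and 14.1%, and IGF2BP2 took 1.99% and 1.73%. The family sum was 302.0 ± 34.8 TPM in CR31B and 272.8 ± 33.7 TPM in DMSO, and the groups overlapped.

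ELAVL1 (ENSG00000066044.15, chr19:7958579-8005659, minus strand) had 95.68, 80.24, 76.54 and 79.45 TPM in CR31B and 110.52, 100.99, 80.46 and 110.06 TPM in DMSO. CR31B was lower in 4 of 4 pairs, and the groups overlapped only because DMSO replicate 3 lay below CR31B replicate 1. The means were 83.0 ± 8.62 and 100.5 ± 14.1 TPM (SD, n = 4 each), and the fitted log2 fold change was -0.27 ± 0.13 (SE; unadjusted p = 0.0684 and adjusted p = 0.254 in limma; exact permutation p = 0.0571). With TPM rescaled over protein-coding genes the ranges were 80.4 to 85.8 and 84.96 to 105.8, which still met.

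ELAVL2 (ENSG00000107105.15, chr9:23690104-23826337, minus strand) had 21.09, 23.47, 35.44 and 24.19 TPM in CR31B and 29.42, 26.55, 23.42 and 28.12 TPM in DMSO. CR31B was lower in 3 of 4 pairs, while CR31B replicate 3 was the highest of the 8 libraries. The log2 fold change was -0.066 ± 0.16 (SE; adjusted p = 0.853 in limma), and without CR31B replicate 1 it was 0.022.

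ELAVL3 (ENSG00000196361.10, chr19:11451326-11481046, minus strand) had 27.64, 32.13, 45.42 and 28.64 TPM in CR31B and 34.28, 47.29, 43.02 and 38.77 TPM in DMSO. Again CR31B replicate 3 stood highest in its group, and the 3 other CR31B libraries lay below all DMSO libraries. The log2 fold change was -0.30 ± 0.17 (SE; adjusted p = 0.319 in limma). A readthrough gene, AC008481.3, repeats 21.3% of its coding windows and was listed at 4.11 to 6.03 TPM in CR31B and 5.82 to 7.88 TPM in DMSO. With its TPM added the log2 fold change was -0.32.

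ELAVL4 (ENSG00000162374.18, chr1:50048014-50203786, plus strand), the Hu protein that binds the GAP43 mRNA in neurons, had 50.21, 43.48, 56.76 and 44.08 TPM in CR31B and 47.82, 40.90, 38.98 and 51.02 TPM in DMSO. CR31B was higher in 3 of 4 pairs and the groups overlapped. The log2 fold change was 0.12 ± 0.13 (SE; adjusted p = 0.637 in limma). It was 0.044 without CR31B replicate 3, 0.059 without DMSO replicate 3 and 0.19 without DMSO replicate 4.

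The ELAVL sum was 191.1 ± 17.3 TPM in CR31B and 212.9 ± 18.7 TPM in DMSO, with overlap. ELAVL1 was the largest share of the summed TPM in both groups, 43.7% and 47.04%. The ELAVL4 share was 24.2% to 26.5% in CR31B and 19.0% to 22.4% in DMSO. These ranges did not overlap, while those of all other family shares did. The log2 ratio of ELAVL1 to ELAVL4 draws on the same values and is no separate support. From TPM + 1, it was 0.92, 0.87, 0.42 and 0.84 in CR31B and 1.19, 1.28, 1.03 and 1.09 in DMSO. All 4 CR31B libraries lay below all 4 DMSO libraries, with a mean difference of -0.39 and with CR31B replicate 3 far below the rest. The exact permutation p was 0.0286, the smallest that 70 assignments allow, and 0.286 after adjustment over the 10 within-family pairs compared. The ELAVL3 to ELAVL4 difference was of like size, -0.42, but with an exact permutation p of 0.143. A shift in the total of a library cancels in such a ratio, apart from the pseudocount.

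**Figure D3:**
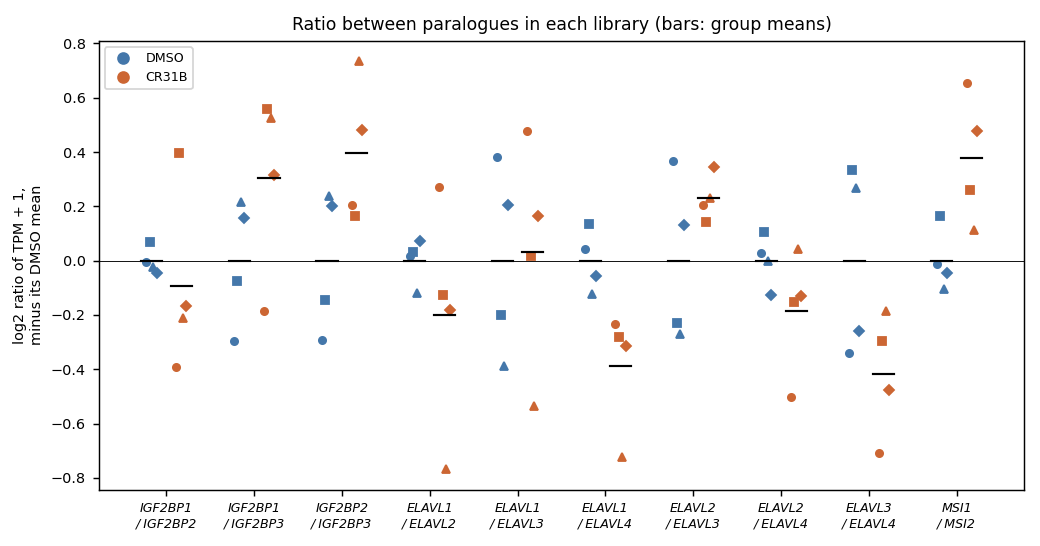
Log2 ratio of TPM + 1 for the 10 pairs of genes within the IGF2BP, ELAVL and Musashi families, less the DMSO mean of each pair, with 1 point per library (marker shape: replicate number) and a bar at each group's mean. The CR31B and DMSO points are apart only for ELAVL1 to ELAVL4, and 0 of 10 differences held after adjustment over the pairs.

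MSI1 (ENSG00000135097.7, chr12:120341330-120369180, minus strand) had 60.16, 48.21, 42.90 and 50.86 TPM in CR31B and 58.22, 53.60, 40.03 and 54.12 TPM in DMSO. CR31B was higher in 2 of 4 pairs. The log2 fold change was -0.023 ± 0.15 (SE; adjusted p = 0.945 in limma), and its 95% interval of -0.35 to 0.30 leaves room for a change of up to that size in either direction.

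MSI2 (ENSG00000153944.12, chr17:57255851-57684685, plus strand), the Musashi protein also known from blood stem cells, had 47.85, 50.70, 50.05 and 45.81 TPM in CR31B and 74.19, 60.28, 54.48 and 70.50 TPM in DMSO. All 4 CR31B libraries lay below all 4 DMSO libraries, which held for 8.14% of all genes tested in this direction and for 16.2% in either. The CR31B values were close together, 48.6 ± 2.23 TPM, and the DMSO values were spread over 64.9 ± 9.08 TPM (SD, n = 4 each). The CR31B mean was 74.9% of the DMSO mean. The log2 fold change was -0.40 ± 0.12 (SE; 95% interval -0.67 to -0.13; limma p = 0.0073, adjusted p = 0.0712), and the exact permutation p was 0.0286, the smallest possible. It ranked 1207 of the 11778 genes by p. With the replicate block the adjusted p was 0.0647. The call depended on the setting: the limma adjusted p was 0.0416 without DMSO replicate 3 (log2 fold change -0.48), 0.0427 with median-ratio scaling and 0.0479 with quantile normalization, and over all 18 alternatives it ran from 0.0416 to 0.192. After rescaling over protein-coding genes the groups still did not overlap, at 42.9 to 53.8 and 57.5 to 69.8 TPM. No coding window of MSI2 was repeated elsewhere, and 13826 to 36271 footprints per library were estimated for it.

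MSI2 took 49.2% ± 4.21 of the Musashi sum in CR31B and 55.8% ± 2.02 in DMSO, with ranges that overlapped. The log2 ratio of MSI1 to MSI2 was 0.046 ± 0.24 in CR31B libraries and -0.33 ± 0.12 in DMSO libraries (SD, n = 4 each). It was higher in CR31B in 4 of 4 pairs, with an exact permutation p of 0.0571 and 0.286 after adjustment over the 10 pairs.

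The 3 genes whose log2(TPM + 1) across the 8 libraries was most like that of MSI2, among 5605 genes averaging 10 TPM or more, were TMED5, DDX6 and RAB1A. Pearson's r was 0.974, 0.971 and 0.969, given as a description over 8 libraries that share the 2 treatment groups. TMED5, a cargo receptor of the early secretory pathway, had 19.0 ± 1.44 TPM in CR31B and 31.2 ± 5.75 TPM in DMSO and fell (log2 fold change -0.67, SE 0.14, adjusted p = 0.0177 in limma). That call was lost without CR31B replicate 4 or DMSO replicate 4 (adjusted p of 0.0538 to 0.0627). DDX6, an RNA helicase of processing bodies, and RAB1A, a GTPase of transport to the Golgi, did not reach the threshold, with log2 fold changes of -0.39 and -0.40 (limma adjusted p of 0.0671 and 0.111).

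Rocaglates are known to clamp eIF4A onto polypurine stretches of RNA, so the longest unbroken run of A and G in 5′UTRs of the members was looked up in the principal GENCODE 29 transcript. The runs of LIN28B, ELAVL3 and IGF2BP2 are shown because they belong to members whose log2 fold changes differ in sign. Capitals mark the run, with 1 flanking base on each side, 5′ to 3′ on the strand of the gene (GRCh38).
LIN28B (chr6:104957085-104957106, plus strand): tGGAGAGAGGAGAGAAAAAAAt
ELAVL3 (chr19:11481002-11481021, minus strand): cGGAGGGAGGGAGGGAGGGt
IGF2BP2 (chr3:185825033-185825050, minus strand): cGGAGGAGGAGGAGAGAc

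The LIN28B run is 20 bases long, a length reached by 1.71% of 1815 tested genes with a 5′UTR within 20% of its length. The shares were 7.49% for the 18 bases of ELAVL3 and 1.07% for the 16 of IGF2BP2. IGF2BP3, IGF2BP1 and ELAVL2 had runs of 13, 12 and 11 bases, that of ELAVL2 across a splice junction, and ELAVL4, ELAVL1 and MSI1 had 7, 6 and 3. The median over 10314 tested protein-coding genes was 8. Of these, 10115 had an annotated 5′UTR and the rest count as a run of 0. Among the members with runs of 16 bases or more shown here, the log2 fold changes had both signs, with -0.30 for ELAVL3, 0.17 for LIN28B and 0.28 for IGF2BP2. ELAVL1, with a run of 6, had -0.27. A length of 16 bases, chosen after the values were seen, was used to split the tested protein-coding genes. Of those with a run at least that long, 16.9% were called (118 of 700, 43 higher and 75 lower). Of the 9614 others 6.97% were called (314 higher and 356 lower). The groups of genes also differed in 5′UTR length, with medians of 431.5 and 189 bases, and the part of length in the difference was not tested. Their median log2 fold changes were -0.037 and 0.034.

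**Figure D4:**
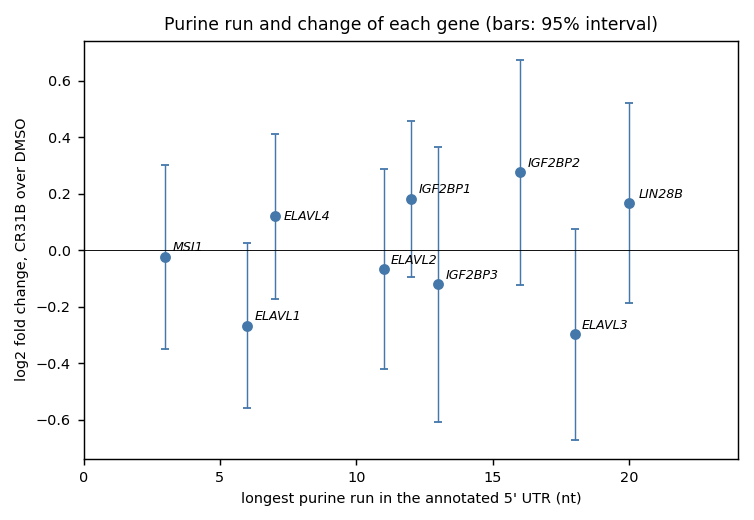
Longest purine run in the 5′UTR of the principal transcript (bases) against the log2 fold change of CR31B over DMSO for 9 of the genes, with the 95% interval of each change. LIN28B and IGF2BP2, with runs of 20 and 16 bases, lie above 0, and ELAVL3, with 18, lies below. Their 95% intervals all include 0.

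The 3′UTR of ELAVL1, ELAVL3 and MSI1 each held 1 AU-rich nonamer, TTATTTATT, the kind of element that ELAVL proteins bind, and the other 7 members held none. The nonamer was found in the 3′UTR of 8.38% of the 10314 tested protein-coding genes, searched on the transcript strand. Among genes of like 3′UTR length the shares with a nonamer were 23.4% for ELAVL1, 13.6% for ELAVL3 and 8.76% for MSI1.

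The 8 lists of genes around these proteins were written from general knowledge, with earlier results of these data known. They held 146 genes, of which 119 were tested and 13 were called, 5 higher and 8 lower in CR31B (10.9%, beside 7.46% of all genes). The called share was 6.67% for let-7 maturation, 17.6% for let-7 targets, 4.17% for IGF2BP partners and 10% for IGF2BP targets. It was 27.8% for ELAVL targets, 12.5% for Musashi targets, 11.8% for AU-rich regulators and 0% for other neuronal proteins. The replicate block called more over all genes tested too, 1453 (12.3%, beside 7.46% without it). With it 5 of the lists had more calls by over 1.5 times, which are given with each list. Of 15 tested genes for let-7 maturation and silencing, 1 rose and 0 fell, with a median log2 fold change of -0.027. The one called was TARBP2, the RNA-binding partner of DICER1, which rose from 5.69 ± 1.51 to 9.81 ± 1.601 TPM (log2 fold change 0.71, SE 0.17, adjusted p = 0.0331 in limma). The antisense gene AC023509.4 overlaps it, at 0.69 to 1.28 TPM in CR31B and 1.44 to 2.68 TPM in DMSO. The call was lost in 6 of the 8 fits that left out 1 library (all but those without CR31B replicate 2 or DMSO replicate 4; adjusted p 0.0592 to 0.0944). The replicate block called 3, adding DROSHA and DICER1, the nucleases of microRNA processing, with log2 fold changes of 0.48 and -0.61 and adjusted p of 0.0311 and 0.0457 in limma.

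Of 17 tested let-7 target mRNAs 1 rose and 2 fell, with a median of -0.094. The receptor gene IGF1R fell from 28.8 ± 5.60 to 6.77 ± 3.09 TPM (log2 fold change -2.01, SE 0.27, adjusted p = 0.00253 in limma). The cyclin gene CCND1 fell from 456.2 ± 74.0 to 234.0 ± 17.1 TPM (log2 fold change -0.95, limma adjusted p = 0.00355). IGF1R and CCND1 were called in all 18 alternatives. MYCN, listed as a target of both let-7 and ELAVL proteins, had 594.55 to 1075.78 TPM in CR31B and 542.02 to 646.63 TPM in DMSO. Its log2 fold change was 0.55 (limma adjusted p = 0.110, and 0.0301 with the replicate block). The block called 6 of the list, with MYCN, ARID3B and AURKB added, and leaving out CR31B replicate 3 gave 5.

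The IGF2BP partners and m6A machinery were 24 genes, all tested, of which 1 rose and 0 fell, with a median of 0.059. YTHDC1, a nuclear m6A reader, rose from 25.9 ± 2.19 to 43.4 ± 7.56 TPM (log2 fold change 0.71, SE 0.14, adjusted p = 0.0137 in limma). With the replicate block 5 were called, all higher in CR31B, adding YBX1, WTAP, ZC3H13 and FTO at log2 fold changes from 0.42 to 0.59. Leaving out CR31B replicate 1 gave 3 calls and leaving out DMSO replicate 1 gave 2. Of 10 tested IGF2BP target mRNAs 1 rose and 0 fell, with a median of -0.18. It was SOX2, a transcription factor of neural progenitors, from 1.198 ± 0.256 to 4.32 ± 2.68 TPM (log2 fold change 1.17, limma adjusted p = 0.0312). That call was lost without CR31B replicate 4 or any of DMSO replicates 1, 2 and 4 (adjusted p 0.0689 to 0.0836). The block added CTNNB1, FSCN1 and HDGF, with log2 fold changes of -0.36, -0.60 and -0.44, for 4 calls.

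Of 18 tested ELAVL target mRNAs 1 rose and 4 fell (27.8%, beside 7.46% of all genes), with a median of -0.099. GAP43, the growth-cone protein whose mRNA ELAVL4 binds, fell from 8.16 ± 1.02 to 3.54 ± 0.654 TPM (log2 fold change -1.02, SE 0.14, adjusted p = 0.00354 in limma). BCL2, a survival gene, fell from 5.66 ± 0.951 to 2.303 ± 0.511 TPM (log2 fold change -1.01, limma adjusted p = 0.00568). CDKN1A, the cell-cycle inhibitor p21, is listed as a target of both ELAVL and Musashi proteins. It fell from 26.9 ± 4.90 to 16.75 ± 2.57 TPM (log2 fold change -0.65, limma adjusted p = 0.0299), a call lost without CR31B replicate 1 or 3 or DMSO replicate 1, 2 or 4 (adjusted p 0.0551 to 0.0862). VEGFA, the growth factor, rose from 2.03 ± 0.382 to 5.37 ± 1.11 TPM (log2 fold change 1.07, SE 0.17, adjusted p = 0.00515 in limma). The antisense gene AL136131.3 overlaps its exons and rose too, from 0.82 to 4.26 TPM in DMSO to 6.8 to 16.32 TPM in CR31B (log2 fold change 2.08, limma adjusted p = 0.00568). With the strand setting unknown, footprints of VEGFA and of that gene cannot be told apart. Without DMSO replicate 4 the list had 3 calls. The block added MYCN, which is on this list too, and HIF1A. Their log2 fold changes were 0.55 and -0.38 (limma adjusted p of 0.0301 and 0.0421 with the block). CDKN1A was the only one of 8 tested Musashi target mRNAs to be called, and their median was -0.16.

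Of 17 tested genes for other AU-rich and UTR-binding regulators 0 rose and 2 fell, with a median of -0.16. HNRNPD (AUF1), which binds AU-rich elements as ELAVL1 does, fell from 516.5 ± 33.8 to 248.2 ± 11.1 TPM (log2 fold change -1.05, SE 0.10, adjusted p = 0.000611 in limma), and all 18 alternatives called it. The antisense gene AC124016.1, which overlaps HNRNPD, did not exceed 0.05 TPM. Genes on the opposite strand also overlap exons of CCND1 (LTO1), MYCN (MYCNOS), CDKN1A (DINOL), WTAP (SOD2), DICER1 (DICER1-AS1) and others named here. Their levels are not given here. QKI, a STAR-family regulator, fell from 42.4 ± 3.32 to 31.4 ± 1.08 TPM (log2 fold change -0.42, limma adjusted p = 0.0323), which was lost in 6 of the 8 fits that left out 1 library (all but those without CR31B replicate 1 or DMSO replicate 3; adjusted p 0.0586 to 0.110). The QKI change was close in size to that of MSI2, -0.40, which missed the threshold. The block called 4, with TIAL1 at -0.46 and CPEB1 at 0.53 added. None of 15 tested neuronal RNA-binding proteins of other families was called by limma, 3 had an unadjusted p under 0.05, their median was -0.15, and leaving out DMSO replicate 3 gave 1 call.

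**Figure D5:**
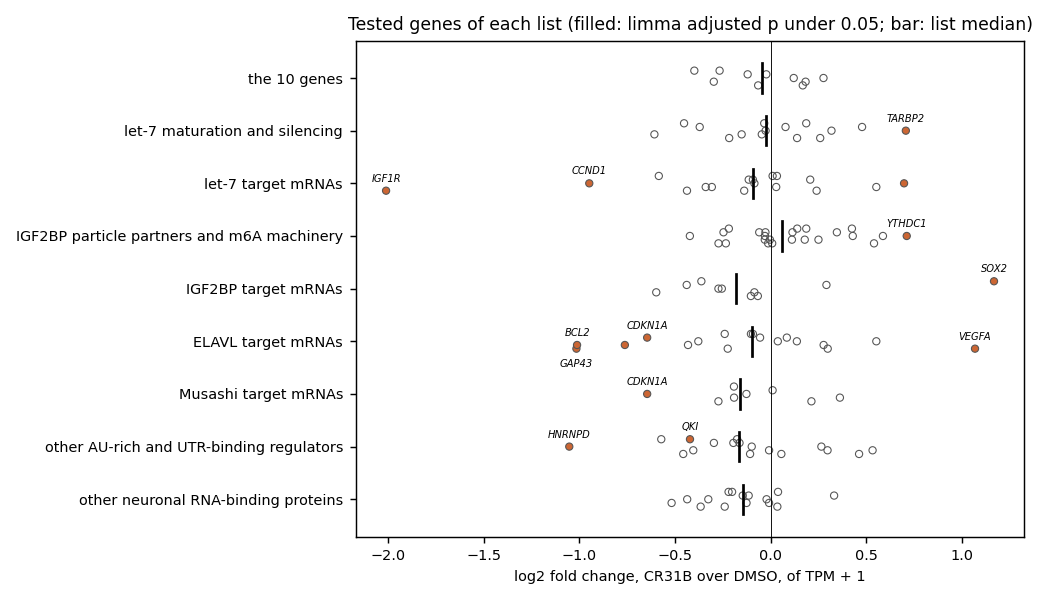
Log2 fold change, CR31B against DMSO, of each tested gene in the 8 lists and of the 10 RNA-binding proteins, with 1 point per gene filled points for an adjusted p under 0.05 in limma, and a bar at each list's median; labels mark the called genes named in the text. The 13 called list genes run from -2.01 for IGF1R to 1.17 for SOX2, while the 10 members run from -0.40 to 0.28 with 0 called.

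The count of 879 genes called depended on single libraries: it was 516 without CR31B replicate 4, 502 without DMSO replicate 1, 514 without DMSO replicate 2 and 404 without DMSO replicate 4. The labels name the replicates as biological without saying what a number stands for.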

How the data were processed

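Ribosome-protected fragments of 28 to 30 nucleotides were sequenced from 8 IMR32 libraries on 2 runs, per the labels' protocols; which library was on which run is not given in the sources used here. The authors deposited 1 table of TPM per gene, with no counts or depths. The submitters' processing notes name cutadapt 3.2, Bowtie2 2.3.4.1, STAR 2.7.1a, RSEM 1.2.28 and DESeq2 1.32.0 and the build GRCh38 (hg38), with no roles. The strand setting and the treatment of reads with several positions are not given there. TPM fixes the sum of each library, so a change in abundant RNA shifts all other genes.

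Symbols matched 60481 of 60651 identifiers, and GENCODE 29 matched 58405. Genes averaging 1 TPM or more over the 8 libraries were analysed as log2(TPM + 1), with limma 3.58.1 (lmFit, eBayes with trend) in R 4.3.3 and treatment as the only term. Fold changes are on that scale, which understates low genes. P-values were adjusted by Benjamini-Hochberg over all 11778 genes. Ratios between paralogues were compared between groups over all 70 assignments with an exact permutation test, two-sided. Numbers of footprints were estimated from the TPM worth of 1 read in genes with a single transcript and from transcript length, and set only the rough precision.

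Deviations of same-numbered libraries from their group means had correlations across genes of 0.333, 0.324, 0.301 and 0.105, against -0.206 to 0.134 (median -0.123) for different numbers. The value of replicate 4, 0.105, lay within the range for different numbers. Deviations sum to 0 within a group, so the 2 sets of correlations are not independent. The replicate number was therefore taken as a pair in a fit with a replicate block. P-values measure the spread between these libraries only.

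The 10 genes, the 8 lists and the tests were chosen with earlier results of these data known. All 10 genes are named, with up to 3 called genes per list and direction and the 3 genes of at least 10 TPM most correlated with the member of lowest p; MYCN and genes called only with the block were named after their values were seen. Some items that the rules select are not reported here. Sequences came from GENCODE 29 and RefSeq. Other pseudocounts, filters, scalings, eBayes settings, the block, and leaving out each library were tried.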

Additional observations from a re-analysis of the deposited data

Results flagged for a closer look

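In 6 of 74 groups of 4 libraries, 1 library's gap to the nearest of the others, divided by the group's range, exceeded Dixon's 95% critical value. Chance gives about 1 in 20 groups, 3.7 here. DMSO replicate 4 stood high for TARBP2, at 7.94 TPM beside 4.84 to 5.13 TPM, and for CDKN1A, at 34.13 TPM beside 23.64 to 25.33 TPM. DMSO replicate 2 stood low for YTHDC1, at 22.65 TPM beside 26.78 to 27.36 TPM, and for VEGFA, at 1.46 TPM beside 2.16 to 2.29 TPM. CR31B replicate 3 stood high for TMED5, at 21.15 TPM beside 18.07 to 18.47 TPM. It also stood low for the log2 ratio of ELAVL1 to ELAVL4, at 0.42 beside 0.84 to 0.92.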

How the results depend on the processing

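Of the 10 members only MSI2 was called under any of the alternatives, in 3 of 18: with quantile normalization (-0.40), with median-ratio scaling (-0.42) and without DMSO replicate 3. Its log2 fold change without 1 library ran from -0.48 to -0.33. Signs turned for MSI1 when TPM were rescaled over protein-coding genes (0.011) and without 1 library (-0.14 to 0.050), for IGF2BP3 without 1 library (-0.32 to 0.011) and for ELAVL2 (-0.22 to 0.022). The log2 ratio of IGF2BP1 to IGF2BP2 turned with a pseudocount of 5 (0.0069) and without 1 library (-0.26 to 0.0059), and that of ELAVL1 to ELAVL3 without 1 library (-0.12 to 0.22). The other members kept their sign without 1 library: LIN28B 0.066 to 0.25, IGF2BP1 0.12 to 0.25, IGF2BP2 0.14 to 0.40, ELAVL1 -0.37 to -0.22, ELAVL3 -0.45 to -0.22 and ELAVL4 0.044 to 0.19. The cause was not tested.

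With the replicate block, which uses the pairing of the numbers, 1453 genes were called, 680 higher and 773 lower; calls were 3 for let-7 maturation, 6 for let-7 targets, 5 for IGF2BP partners, 4 for IGF2BP targets and 4 for AU-rich regulators. It changed no member's call; within 4 pairs the smallest p for a paralogue ratio is 0.125. With no filter, where more genes are tested, 442 genes were called, 181 higher and 261 lower, with 3 ELAVL targets, 0 IGF2BP targets and 0 Musashi targets. Without 1 library, 404 to 785 genes were called, 197 to 395 higher and 207 to 487 lower. The calls per list then ran from 0 to 1 for let-7 maturation, IGF2BP targets, Musashi targets and neuronal proteins, 3 to 5 for let-7 targets, 1 to 3 for IGF2BP partners, 3 to 6 for ELAVL targets and 1 to 2 for AU-rich regulators. A filter at 10 TPM left 0 calls for let-7 maturation and 2 for ELAVL targets, since fewer genes are tested. Quantile normalization gave 2 for let-7 maturation. Median-ratio scaling gave 2 each for let-7 maturation, IGF2BP partners and IGF2BP targets. Rescaling over protein-coding genes gave 3 for IGF2BP partners, a pseudocount of 5 gave 0 for IGF2BP targets and robust eBayes gave 2. Of the values checked, with the 4 sums over repeated sequence that were added after seeing the data, 416 kept direction and side of the threshold or, for counts, stayed within 1.5 times. Another 59 moved, 12 reversed and 3 became stronger. Depth limits LIN28B and IGF2BP2 most, with the fewest estimated footprints.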
